A study of Mus musculus with 12 samples.

Results

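The transcripts of 30 genes of glucose use and low-oxygen response were followed in mouse CD8 T cells specific for Rpl18, picked out with a peptide-MHC tetramer that sticks only to matching T-cell receptors. The genes were chosen by name: 4 carry glucose or lactate across the cell membrane, 14 are enzymes of glycolysis and 12 are the hypoxia factor gene Hif1a and genes known to be induced by low oxygen. All 30 were among the 26962 genes of the deposited table, 29 under the listed symbol and 1, Ero1a, through its gene identifier because the list used its older name Ero1l. All 30 also passed the filter on low values that left 16065 genes for testing.

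Sorting took place on day 10 of growth of MC38, a carcinoma line of mouse colon, and each of 4 groups held 3 libraries. KO mice lacked TrIP, a membrane protein that restrains PI3K signalling, in CD8 cells only, and gave the KO tumor group and, from the lymph node that drains the tumor (TDLN), the KO TDLN group. The WT tumor and WT TDLN groups came from wild-type mice with MC38 tumors. KO libraries are numbered 1, 2 and 3 and WT libraries 1, 3 and 4. The labels name neither the driver of the knockout nor the strain or age, and they do not say whether each library is a separate mouse, so p-values measure the spread between these libraries, which may be technical.

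Values were normalized counts, in which a single read was worth 0.717 to 1.39, and an estimated 18.3 to 36.9 M reads in genes lay behind each library. Pik3ip1, the gene that encodes TrIP, stood at 55.5 to 173.3 normalized counts in KO tumor and 118.8 to 179.1 in WT tumor, and at 854.2 to 1573.2 in KO TDLN and 607.0 to 1095.3 in WT TDLN. Neither difference passed (limma adjusted p = 0.814 and 1.0), a whole-gene value may miss a deletion of single exons, and KO is used here as the label of the libraries. CD8 T-cell identity genes, among them Cd8a and Cd3e, were above 0 in all libraries and summed to 0.441 to 0.674% of the total in tumor and 0.418 to 0.722% in TDLN. Libraries of both tissues also held transcripts of other cells. B-cell markers summed to 0.00276 to 0.00961% in tumor and 0.022 to 0.043% in TDLN. Red blood cell markers summed to 0.044% in KO tumor replicate 2 and to at most 0.00465% in any other library. Macrophage and monocyte markers summed to 0.0884 to 0.322% in tumor and 0.0423 to 0.0901% in TDLN, with C1qc and Ms4a7 at 0 in all 6 TDLN libraries. Ly6c2, part of that sum, is also made by activated CD8 T cells. It made up most of the sum in TDLN, at 6586 to 20581 of 10020 to 21525 normalized counts. Fibroblast markers summed to 0.0192 to 0.129% in tumor and to at most 5.84e-05% in TDLN, with Col1a2 and Col3a1 at 0 in all TDLN libraries. In bulk samples, fewer cells of a type and less RNA per cell cannot be told apart. The part of these other transcripts in the results on tumor against TDLN was not tested. WT tumor replicate 3 stood apart on the second principal component, at -77.4, whereas the remaining tumor libraries lay between -5 and 23.7.

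Glycolysis turns glucose into pyruvate in the cytosol. GLUT transporters admit the sugar, hexokinases trap it, a chain of enzymes splits and oxidises it, lactate dehydrogenase reduces the pyruvate, and monocarboxylate transporters pass the lactate out of the cell. Activated T cells are known for a high rate of this pathway. When oxygen falls, the hypoxia-inducible factor made of the Hif1a product and its partner is no longer destroyed, and it binds the core letters ACGTG or GCGTG in control regions of many genes of this pathway.

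Promoters of 28 of the 30 genes were matched in the RefSeq table (build GRCm38.p6), each 250 bases before to 50 bases after a transcription start. Slc2a3 and Ndrg1 had no entry. Of the 43 member promoters, 33 (76.7%) held ACGTG or GCGTG on either strand, against 43.8% of 32851 promoters of the same length. The letters were present in a promoter of 3 of 3 transporters, 12 of 14 enzymes and 10 of 11 hypoxia genes; Tpi1, Gpi1 and Car12 had none. Genes that passed and genes that did not both held them: all 10 genes with an entry that were called higher in tumor in both genotypes held the letters, and so did 15 of the other 18. The sequences of 4 promoters are shown for this contrast, with each place where one of these motifs lies on either strand in capitals. Bnip3, Hilpda and Slc16a3 were called higher in tumor, and Ldha, which had the most matches of any member when both strands were counted, was not.
Bnip3, chr7:138909457-138909756, minus strand: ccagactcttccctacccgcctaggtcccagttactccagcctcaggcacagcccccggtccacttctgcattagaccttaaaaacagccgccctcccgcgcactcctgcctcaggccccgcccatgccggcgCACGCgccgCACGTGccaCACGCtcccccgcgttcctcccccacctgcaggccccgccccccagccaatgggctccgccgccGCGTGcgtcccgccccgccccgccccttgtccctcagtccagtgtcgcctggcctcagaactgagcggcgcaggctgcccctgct
Hilpda, chr6:29272376-29272675, plus strand: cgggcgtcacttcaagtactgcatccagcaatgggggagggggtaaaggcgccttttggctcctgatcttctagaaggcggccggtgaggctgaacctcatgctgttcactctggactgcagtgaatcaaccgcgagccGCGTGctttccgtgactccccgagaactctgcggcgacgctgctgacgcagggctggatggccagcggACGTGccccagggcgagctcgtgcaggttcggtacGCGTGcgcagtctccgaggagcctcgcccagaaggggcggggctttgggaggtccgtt
Slc16a3, chr11:120948817-120949116, plus strand: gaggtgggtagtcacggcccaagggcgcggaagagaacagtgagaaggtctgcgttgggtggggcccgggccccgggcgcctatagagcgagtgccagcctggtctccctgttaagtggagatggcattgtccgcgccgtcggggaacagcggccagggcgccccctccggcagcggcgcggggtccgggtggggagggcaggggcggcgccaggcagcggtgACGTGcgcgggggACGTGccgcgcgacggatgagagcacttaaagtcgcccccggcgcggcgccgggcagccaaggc
Ldha, chr7:46845554-46845853, plus strand: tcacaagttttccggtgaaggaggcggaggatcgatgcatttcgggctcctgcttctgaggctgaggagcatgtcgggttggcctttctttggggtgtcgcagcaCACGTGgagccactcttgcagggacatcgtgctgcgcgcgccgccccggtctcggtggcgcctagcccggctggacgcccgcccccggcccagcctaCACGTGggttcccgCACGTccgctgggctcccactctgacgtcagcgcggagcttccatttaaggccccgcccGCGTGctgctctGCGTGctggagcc
The windows hold 5 matches for Bnip3, 3 for Hilpda, 2 for Slc16a3 and 7 for Ldha. Ldha also holds the E-box CACGTG at 2 places and Bnip3 at 1. Each E-box contains ACGTG on both strands and counts as 2 matches, and the lead of Ldha rests on this. Hk1 reached 5 matches in a promoter without an E-box. CACGTG stood in 7.15% of all promoters. A match describes the letters and not a bound site.

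Tumor was set against TDLN separately in KO and in WT. Most transport and hypoxia genes were higher in tumor, and most glycolytic enzymes did not pass the test. In KO, 15 of the 30 genes were higher and 0 lower (limma, two-sided, Benjamini-Hochberg adjusted p under 0.05 over all genes tested), beside 30.6% of all genes called, 18.1% as higher and 12.6% as lower. In WT, 12 were higher and 1 lower, beside 26.8% of all genes called, 15.9% as higher and 10.9% as lower. Values of the tissues did not overlap in KO for 4 transporters, 6 enzymes and 9 hypoxia genes, each with tumor above, beside 50.2% of all genes (27.5% with tumor above and 22.7% below). In WT they did not overlap for 3 transporters and 8 hypoxia genes with tumor above, and for Car12 with tumor below, beside 39.8% of all genes (22.8% with tumor above). The genes called higher in WT were also called higher in KO: Slc2a1, Slc2a3, Slc16a3, Hk2, Bnip3, Hif1a, Hilpda, Vegfa, Ankrd37, Mxi1, P4ha1 and Ndrg1. Hk1, Pfkp and Pfkm were called in KO and not in WT, and Eno1 was called lower in WT and not in KO; none of these 4 differences between the genotypes passed the interaction test (adjusted p = 1.0 each). The remaining 14 were called in neither. The split of all genes into higher and lower depended on scaling. With columns rescaled to the same total it was 2644 higher and 2403 lower in KO and 2110 and 2527 in WT, and for the 30 genes it was 14 and 0 in KO and 11 and 1 in WT.

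**Figure D1:**
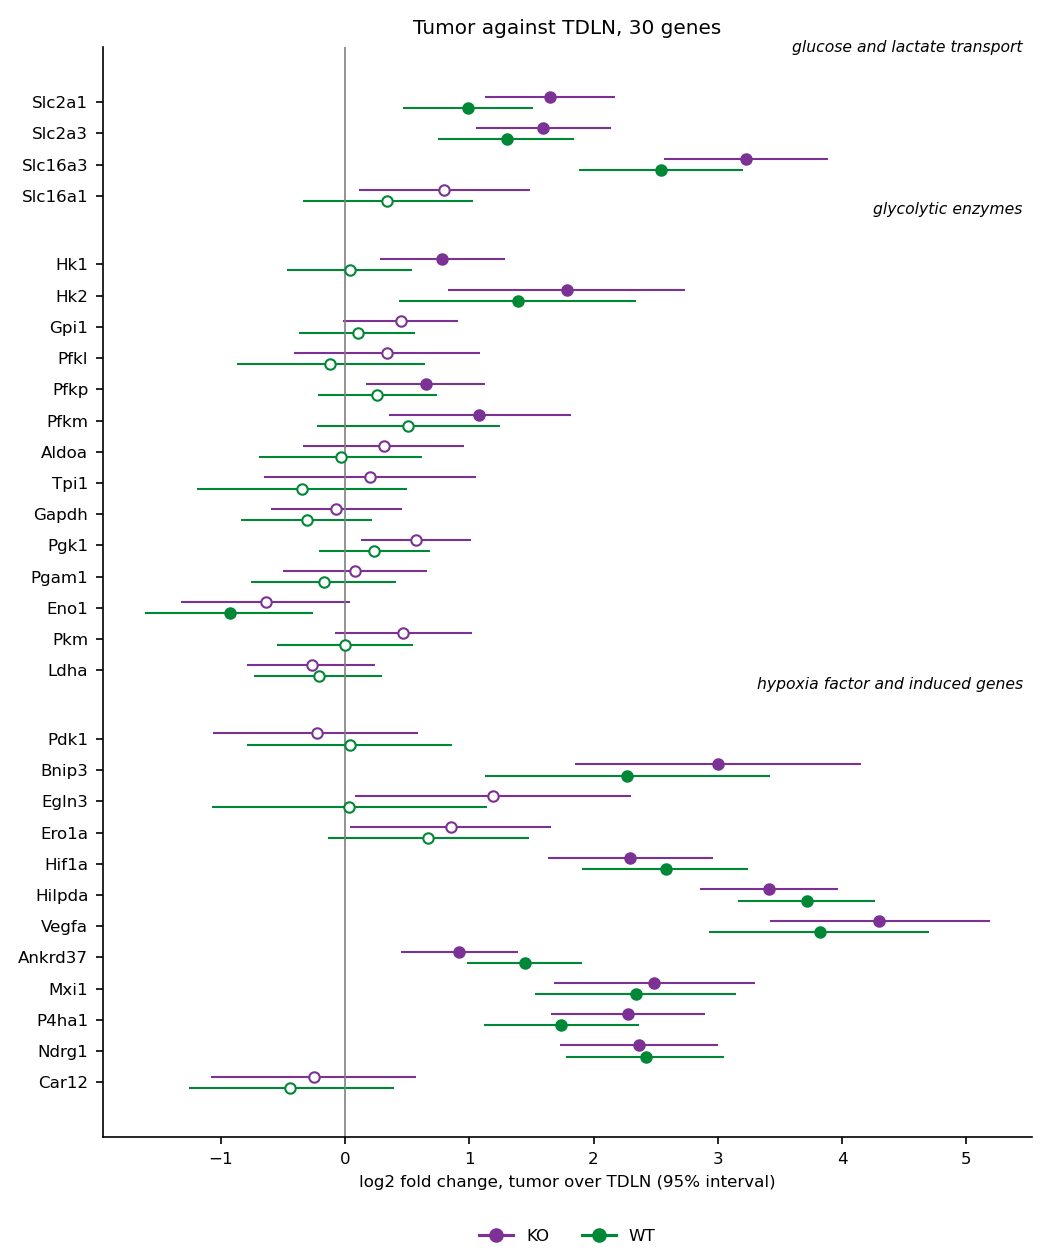
Log2 fold change of tumor over TDLN for the 30 genes in KO (purple) and WT (green), with 95% intervals from limma; filled points passed an adjusted p of 0.05. Vegfa lies farthest to the right, at 4.30 in KO and 3.82 in WT, and Eno1 farthest to the left, at -0.64 in KO and -0.93 in WT.

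Transporters came first in the chain, and 3 of 4 were higher in tumor in each genotype. Of all genes, 18.1% were called higher in KO and 15.9% in WT. The median log2 fold change of the transporters was 1.62 in KO and 1.15 in WT, against 0.05 over all genes in each. Slc2a1 (ENSMUSG00000028645), the GLUT1 glucose carrier, had 847.3, 998.5 and 838.7 normalized counts in KO tumor and 186.5, 367.9 and 277.5 in KO TDLN. It had 563.6, 700.5 and 703.3 in WT tumor and 321.3, 264.9 and 367.7 in WT TDLN. The lowest tumor library was above the highest TDLN library in both genotypes, and the log2 change was 1.65 in KO (SE 0.24, adjusted p = 0.000385) and 0.99 in WT (SE 0.24, adjusted p = 0.00949). With sample weights the WT change was 0.82 and no longer passed (adjusted p = 0.0612).

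Slc2a3 (ENSMUSG00000003153), the GLUT3 carrier, had 1233, 1283 and 1030 normalized counts in KO tumor and 297.1, 400.8 and 438.8 in KO TDLN. It had 857.3, 656.8 and 1337 in WT tumor and 393, 321 and 355.5 in WT TDLN. The tissues did not overlap, at log2 changes of 1.59 in KO (SE 0.25, adjusted p = 0.000682) and 1.30 in WT (SE 0.25, adjusted p = 0.00274). Per kilobase of exon, Slc2a3 stayed below Slc2a1 in all 12 libraries, at 0.594 to 0.702 of its level in KO tumor, 0.454 to 0.92 in WT tumor, 0.527 to 0.771 in KO TDLN and 0.468 to 0.592 in WT TDLN. The exon lengths join all annotated exons of a gene, 7245 bases for Slc2a3 and 3506 for Slc2a1. They are from GENCODE M21, an older gene set than the table's, so these ratios are approximate. The order of the 2 carriers rests on the lengths, since Slc2a3 had more normalized counts than Slc2a1 in most libraries.

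Of the lactate carriers, Slc16a3 passed in both genotypes and Slc16a1 in neither. Slc16a3 (ENSMUSG00000025161), the exporter MCT4, had 251.7, 565.9 and 339.6 normalized counts in KO tumor and 20.9, 19.7 and 10.6 in KO TDLN. It had 308.1, 294 and 270.1 in WT tumor and 27.3, 43.9 and 19.3 in WT TDLN. No library of one tissue reached the range of the other, and the log2 change was 3.23 in KO (SE 0.30, adjusted p = 1.41e-05) and 2.54 in WT (SE 0.30, adjusted p = 0.000111). These sizes rest on the pseudocount, being 4.03 in KO and 3.08 in WT with 0.25 CPM and 2.01 and 1.59 with 4 CPM. KO tumor replicate 2, the highest, also had the highest macrophage and monocyte sum, 0.322%. Slc16a1, the carrier MCT1, averaged 2647 ± 669.1 normalized counts in KO tumor and 1538 ± 508.6 in KO TDLN (SD, n = 3 each), and 1844 ± 296 in WT tumor and 1517 ± 575.6 in WT TDLN. Its log2 changes of 0.80 and 0.34 did not pass (limma adjusted p = 0.0727 and 0.45), though the KO change passed without WT TDLN replicate 3 (adjusted p = 0.041). Per kilobase, Slc16a1 stood 7.22 to 11.8 times above Slc16a3 in KO tumor and 90.8 to 123 times in KO TDLN, and 5.98 to 9.43 times in WT tumor and 24.7 to 128 times in WT TDLN. The gap between the carriers was thus narrower in every tumor library than in any TDLN library, and Slc16a1 stayed the more abundant throughout.

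**Figure D2:**
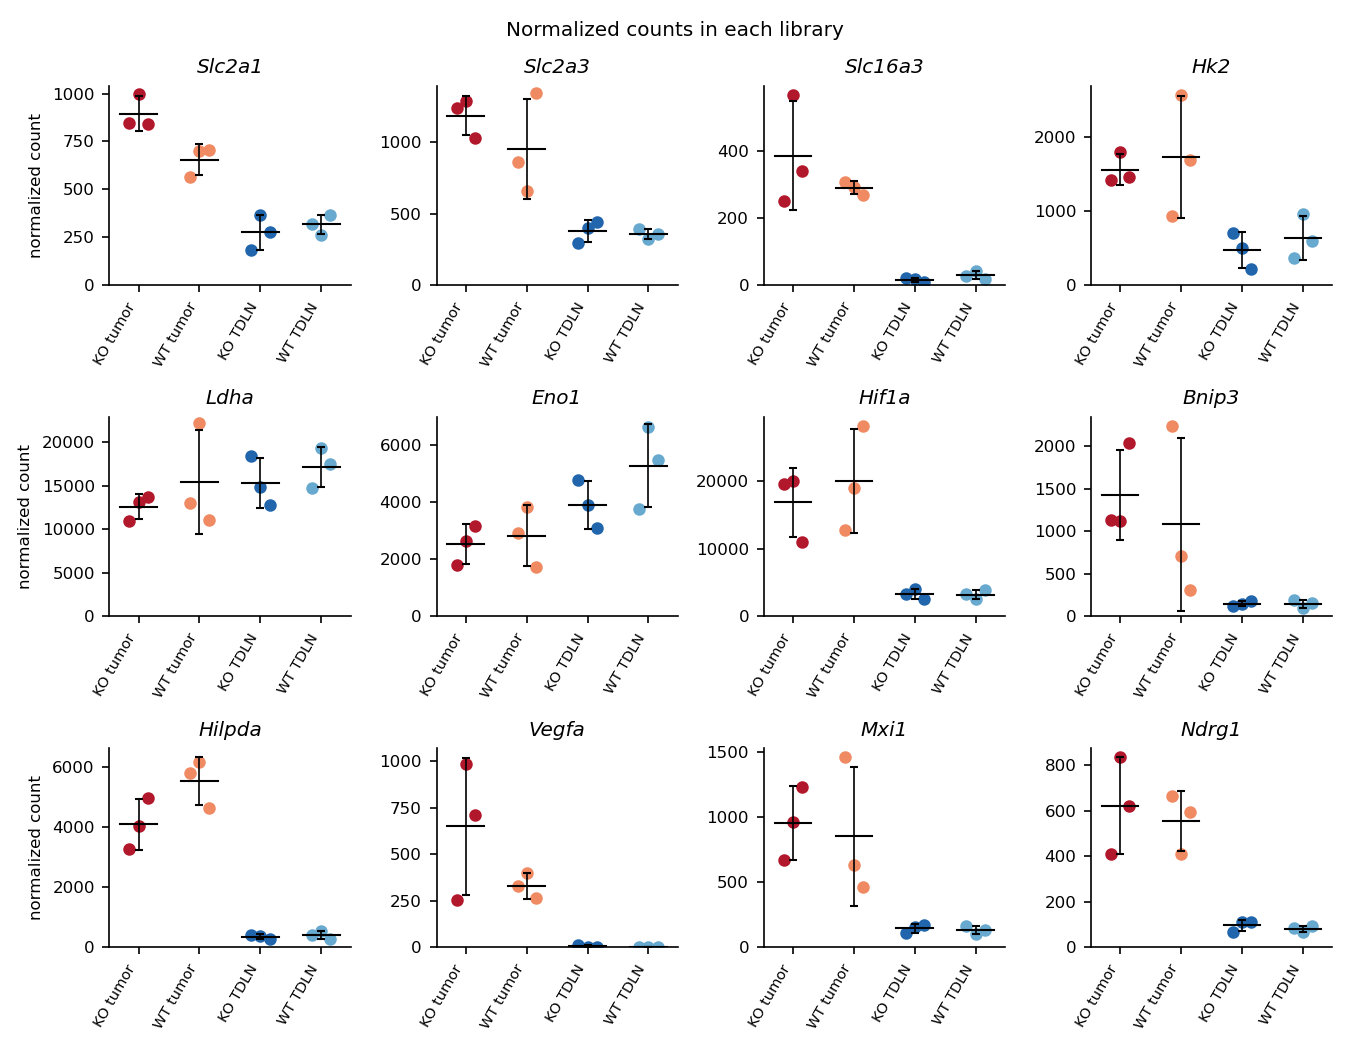
Normalized counts of 12 genes in each library (points), with the mean (line) and SD (bar) of KO tumor, WT tumor, KO TDLN and WT TDLN, n = 3 each, on linear axes from 0. Transport and hypoxia genes separate tumor from TDLN, Hk2 overlaps in WT, and Ldha overlaps in both genotypes.

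Counted in either direction, enzymes of glycolysis passed at about the share of all genes in KO and below it in WT. Counted as higher alone, they passed above the share of all genes in KO and below it in WT. In KO, Hk1, Hk2, Pfkp and Pfkm (4 of 14) passed as higher and none as lower, and the median log2 change was 0.39. In WT, Hk2 passed as higher and Eno1 as lower, and the median was -0.02. Among all genes, 30.6% were called in KO, 18.1% as higher, and 26.8% in WT, 15.9% as higher. As a share of the column total, the 14 enzymes together held 0.146 to 0.201% in KO tumor and 0.139 to 0.216% in KO TDLN, and 0.143 to 0.234% in WT tumor and 0.171 to 0.288% in WT TDLN, so the tissues overlapped in both genotypes.

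The first step held the enzyme called higher in both genotypes. Hk2 (ENSMUSG00000000628), the inducible hexokinase, had 1419, 1807 and 1467 normalized counts in KO tumor and 704.8, 501.5 and 224.7 in KO TDLN. It had 935.6, 2578 and 1695 in WT tumor and 369.8, 959.7 and 596.2 in WT TDLN. Tumor lay above TDLN without overlap in KO, whereas in WT the lowest tumor library fell just below the highest TDLN library. The log2 change was 1.79 in KO (SE 0.44, adjusted p = 0.00951) and 1.39 in WT (SE 0.44, adjusted p = 0.0352). In WT the call ended without WT tumor replicate 3 (1.05, adjusted p = 0.101), WT tumor replicate 4 (1.34, adjusted p = 0.0904), WT TDLN replicate 1 (1.06, adjusted p = 0.129) or WT TDLN replicate 4 (1.38, adjusted p = 0.0831), and also with no filter (adjusted p = 0.0633), rescaled columns (0.0649), only the compared groups (0.0596) or sample weights (0.054).

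Hk1 (ENSMUSG00000037012), the widely expressed hexokinase, had 554.6, 688.9 and 457 normalized counts in KO tumor and 322.9, 346 and 279.4 in KO TDLN, a log2 change of 0.78 (SE 0.23, adjusted p = 0.024). In WT it had 438.6, 327 and 389.8 in tumor and 330.4, 492.4 and 314 in TDLN, which overlapped, at 0.04 (adjusted p = 0.917). The KO call ended without either of KO tumor replicates 1 and 2 or of KO TDLN replicates 1 and 3, at 0.64 to 0.80 with adjusted p from 0.0614 to 0.0935. Per kilobase, Hk2 exceeded Hk1 3.66 to 4.59 times in KO tumor and 1.15 to 3.12 times in KO TDLN, and 3.05 to 11.3 times in WT tumor and 1.6 to 2.79 times in WT TDLN. By this measure Hk2 was the more abundant hexokinase in all 12 libraries, with the larger excess in tumor within each genotype. The lengths join all annotated exons, 8532 bases for Hk1 and 5969 for Hk2. In KO TDLN replicate 3 the order rests on these lengths, as Hk2 had 224.7 normalized counts there and Hk1 279.4. Hk1os, an antisense gene at the same place, averaged 74.5 normalized counts against 411.7 for Hk1; the labels name a stranded kit but not whether counting used strand.

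Of the phosphofructokinases, which commit sugar to the pathway, Pfkp was the most abundant per kilobase in every library. It exceeded Pfkl 4.95 to 8.4 times in KO tumor and 4.71 to 6.29 times in KO TDLN, and 3.05 to 9.54 times in WT tumor and 3.15 to 5.74 times in WT TDLN. Pfkp averaged 2689 ± 622.9 normalized counts in KO tumor and 1701 ± 369.3 in KO TDLN (SD, n = 3 each), a log2 change of 0.65 (limma adjusted p = 0.0412), and 2328 ± 150.4 in WT tumor and 1961 ± 368.8 in WT TDLN, a change of 0.26 that did not pass (limma adjusted p = 0.407). Pitrm1, antisense to Pfkp and overlapping it, averaged 195.4 normalized counts. The KO call for Pfkp ended without either of KO tumor replicates 1 and 2 or of KO TDLN replicates 1 and 3, at 0.46 to 0.72, and also with no filter (adjusted p = 0.0593), rescaled columns (0.0712) or only the compared groups (0.0548).

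Pfkm (ENSMUSG00000033065), the muscle isozyme, was the scarcest enzyme, with 18 to 97 reads in a library. It had 80.3, 97.7 and 92.9 normalized counts in KO tumor and 17.8, 25.2 and 49.9 in KO TDLN, a log2 change of 1.08 (SE 0.34, adjusted p = 0.0302). In WT it had 68, 69.5 and 38.1 in tumor and 18.2, 63.4 and 25.4 in TDLN, which overlapped, at 0.51 (adjusted p = 0.285). The KO call ended without any 1 of KO tumor replicates 1, 2 and 3 and KO TDLN replicates 1 and 2, at 0.91 to 1.15 with adjusted p from 0.0594 to 0.12, and with quantile normalization (0.65, adjusted p = 0.165). Senp1, on the opposite strand, overlaps Pfkm and averaged 612.6 normalized counts against 53.9, so reads of the pair cannot be told apart if strand was not used. Gm26513 overlaps Pfkm on the same strand and averaged 15.6, and strand would not separate those reads. Pfkl, the liver isozyme, had changes of 0.34 and -0.12 that did not pass.

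No enzyme of the lower part of the pathway was called higher as deposited, and Pgk1 in KO lay at the threshold. Ldha (ENSMUSG00000063229), which makes lactate, had 10987, 13146 and 13658 normalized counts in KO tumor and 18379, 14884 and 12745 in KO TDLN. It had 13028, 22256 and 11029 in WT tumor and 14697, 19301 and 17550 in WT TDLN. The tissues overlapped in both genotypes, and the log2 changes of -0.27 in KO (95% interval -0.79 to 0.24, adjusted p = 0.403) and -0.21 in WT (95% interval -0.73 to 0.30, adjusted p = 0.536) did not pass. The upper ends of those intervals lie far below the changes of Slc16a3. WT tumor replicate 3 was the highest of all libraries for Ldha.

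Eno1 (ENSMUSG00000063524), enolase, had 1799, 2638 and 3186 normalized counts in KO tumor and 4772, 3899 and 3088 in KO TDLN. It had 2914, 3851 and 1726 in WT tumor and 3761, 6649 and 5477 in WT TDLN. A single tumor library exceeded the lowest TDLN library in each genotype. The log2 change was -0.64 in KO (SE 0.31, adjusted p = 0.14) and -0.93 in WT (SE 0.31, adjusted p = 0.0434). The WT call held under 11 of 22 alternatives, and among those that ended it were leaving out WT tumor replicate 4 (-0.62, adjusted p = 0.172), WT tumor replicate 1 (adjusted p = 0.0659), WT TDLN replicate 3 (-0.75, adjusted p = 0.151), WT TDLN replicate 4 (adjusted p = 0.112), KO tumor replicate 2 (adjusted p = 0.0554), KO TDLN replicate 1 (adjusted p = 0.0518) and KO TDLN replicate 2 (adjusted p = 0.0596). It also ended with no filter (adjusted p = 0.0748), only the compared groups (0.085) or sample weights (0.0547), while the KO change passed with sample weights (-0.81, adjusted p = 0.0227).

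The other enzymes passed in neither genotype. Their log2 changes in KO and WT were 0.45 and 0.10 for Gpi1, which isomerises the phosphorylated sugar, 0.31 and -0.03 for the aldolase Aldoa, and 0.20 and -0.35 for the triose phosphate isomerase Tpi1. They were -0.07 and -0.31 for the dehydrogenase Gapdh, 0.57 and 0.23 for the phosphoglycerate kinase Pgk1, 0.08 and -0.17 for the mutase Pgam1, and 0.47 and 0.00 for the pyruvate kinase Pkm. Pgk1 in KO came nearest to the threshold (adjusted p = 0.0515), with 3431, 4202 and 3421 normalized counts in KO tumor all above 2850, 2834 and 1851 in KO TDLN. It passed, at 0.57, with a filter at 5 CPM (adjusted p = 0.0498), with quantile normalization (0.0422), and without WT tumor replicate 4 (0.0496) or WT TDLN replicate 3 (0.0448). With columns rescaled to the same total, the WT values of Gpi1, Hk1, Pdk1 and Egln3 were -0.08, -0.13, -0.12 and -0.10.

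Many enzyme genes have near-identical copies elsewhere in the genome, most of them processed pseudogenes, and a read from such a gene can be assigned to a copy. By alignment of annotated transcripts at 90% identity or more over 300 bases or more, 11 of the 30 genes had 223 copies in the table. Gapdh had 166, Ldha 17, Pkm 9, Eno1 8, Aldoa 7, Bnip3 5, Pgk1 4, Pgam1 3, Tpi1 2, and Gpi1 and Mxi1 had 1 each. The largest single copy of Eno1 was Eno1b, 99.5% identical over 1736 bases. Over the 12 libraries, Eno1b averaged 5958.3 normalized counts and Eno1 itself 3647. Pgk1 and its copy Gm5537 matched without a difference over 1252 bases, and Gpi1 and Gpi-ps at 98.7% over 1046 bases. How the authors' counting shared such reads is not given in the sources used here, so the values of these 11 genes are uncertain.

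The share listed under the copies was not the same in the tissues. Over the 11 genes and their copies it was 39.0, 36.4 and 51.4% in KO tumor and 62.3, 62.2 and 63.4% in KO TDLN, and 50.3, 62.0 and 40.5% in WT tumor and 62.2, 67 and 62.5% in WT TDLN. TDLN libraries were close to each other, while tumor libraries were spread and mostly lower, with WT tumor replicate 3 near the TDLN level. For Gapdh the copies held 84.7, 82.8 and 89.9% in KO tumor and 92.7, 92.7 and 92.5% in KO TDLN, and 90.1, 92.7 and 85.6% in WT tumor and 92.4, 93.6 and 92.4% in WT TDLN. The cause of the unequal shares was not tested.

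**Figure D3:**
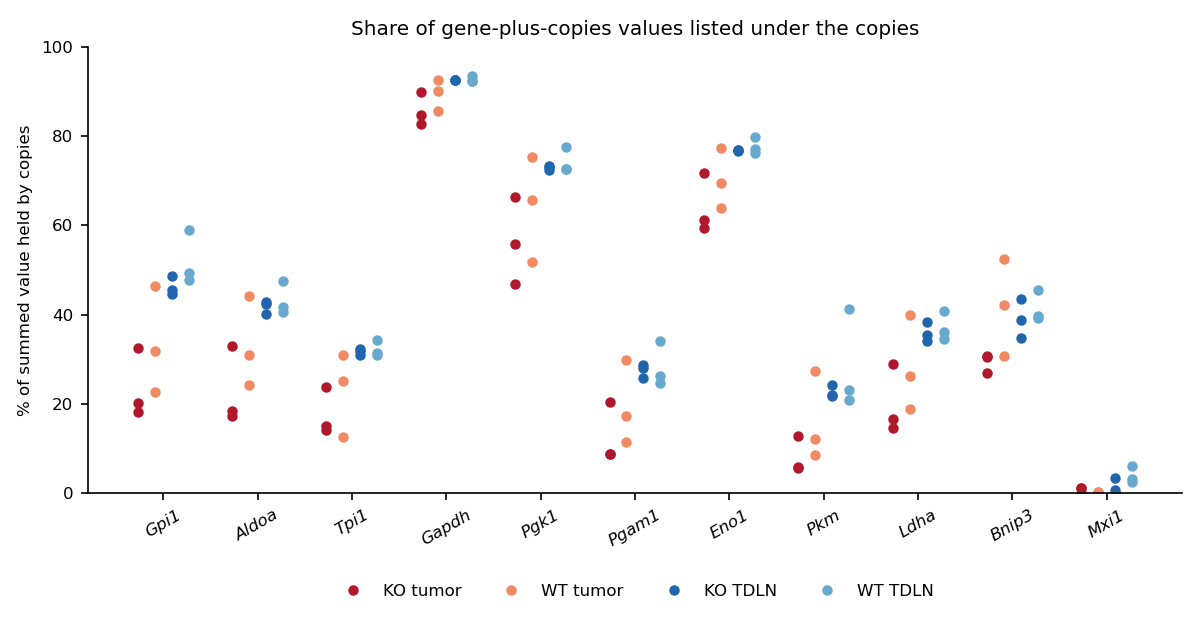
Percent of the value of each gene plus its copies that the table lists under the copies, for the 11 genes with copies, 1 point per library in the order KO tumor, WT tumor, KO TDLN and WT TDLN. For Gapdh the points run between 82.8 and 92.7% in tumor and between 92.4 and 93.6% in TDLN; other genes differ, as Bnip3, whose WT tumor replicate 4, at 52.4%, is above every TDLN library, and Pkm, which reaches 41.3% in WT TDLN replicate 3.

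Each gene was therefore also summed with its copies, a choice made after seeing the data. Eno1 with its copies had 4445.6, 6784.1 and 11312.5 normalized counts in KO tumor and 20388.5, 16948.9 and 13409.9 in KO TDLN, and 9570.8, 17014.9 and 4764.5 in WT tumor and 16415.1, 32982.8 and 22983.9 in WT TDLN. The tissues then did not overlap in KO, and Eno1 was called lower in both genotypes, at -1.25 in KO (SE 0.43, adjusted p = 0.0442) and -1.33 in WT (SE 0.43, adjusted p = 0.038). Without each library in turn, the summed Eno1 passed in 5 of 12 fits in KO, at -1.60 to -0.93, and in 7 of 12 in WT, at -1.77 to -0.86. Gapdh with its copies stood at -0.98 in KO and -0.81 in WT, and neither passed (adjusted p = 0.081 and 0.154).

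Summed with copies, the median over the 14 enzymes was -0.06 in KO, with 4 higher and 1 lower, and -0.25 in WT, with 1 higher and 1 lower. Aldoa, Gpi1, Pgk1, Pgam1 and Tpi1 turned from above to below 0 in KO (-0.09, -0.05, -0.09, -0.18 and -0.07), as did Gpi1 (-0.36) and Pgk1 (-0.19) in WT. Pkm stayed above 0 in KO at 0.22 and stood at -0.24 in WT. The 4 enzymes called higher, Hk1, Hk2, Pfkp and Pfkm, have no such copies. Of the hypoxia genes, Bnip3 was called higher with its copies too, at 2.86 in KO (adjusted p = 0.000683) and 2.37 in WT (adjusted p = 0.00256), as was Mxi1, whose copy held at most 6.0% of the sum.

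**Figure D4:**
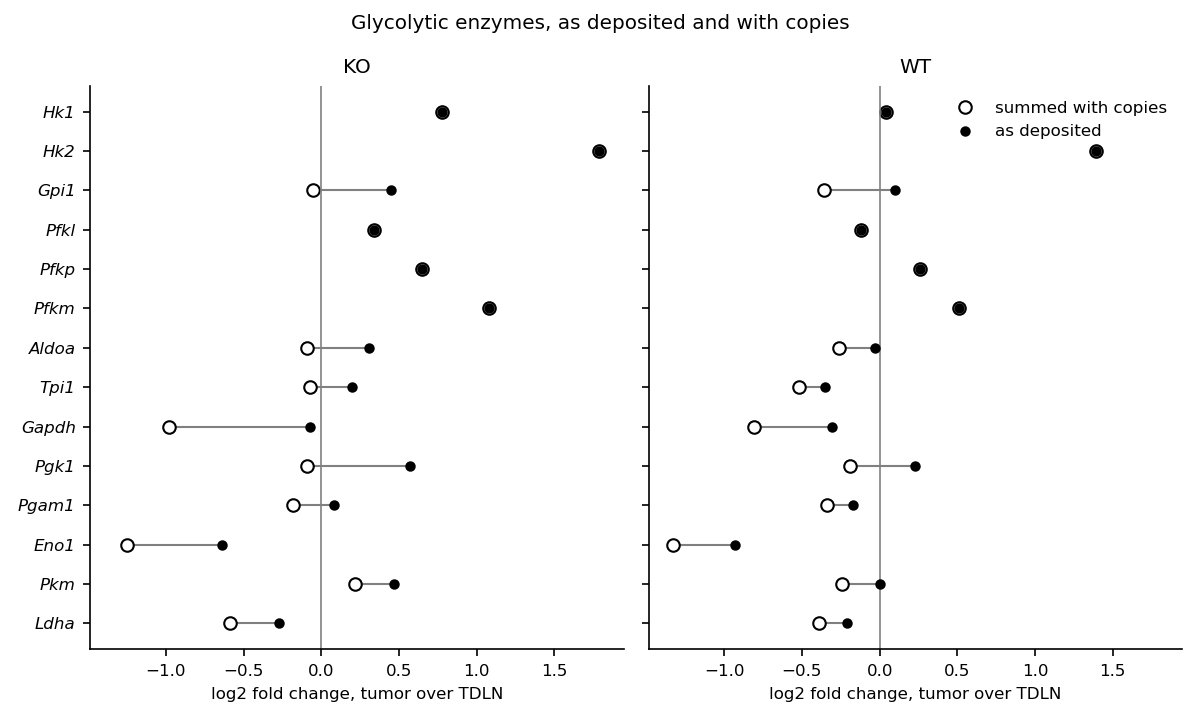
Log2 fold change of tumor over TDLN for the 14 glycolytic enzymes in KO (left) and WT (right), as deposited (filled) and summed with near-identical copies (open). Every enzyme with copies moved toward lower values in tumor, Gapdh in KO from -0.07 as deposited to -0.98 with copies; enzymes without copies have both points in the same place.

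Among the 12 hypoxia genes, 8 were higher in tumor in each genotype, beside 18.1% of all genes in KO and 15.9% in WT. Their median log2 change was 2.29 in KO and 2.01 in WT. Hif1a (ENSMUSG00000021109), the oxygen-regulated subunit of the factor, had 19679, 20004 and 11040 normalized counts in KO tumor and 3376, 4111 and 2622 in KO TDLN. It had 12829, 19091 and 28264 in WT tumor and 3282, 2523 and 3862 in WT TDLN. The lowest tumor value was above the highest TDLN value by more than the range of all TDLN libraries, at log2 changes of 2.29 in KO (SE 0.31, adjusted p = 0.00021) and 2.58 in WT (SE 0.31, adjusted p = 0.000104). The factor is regulated mainly as a protein, which these data do not measure.

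Bnip3 (ENSMUSG00000078566), a mitophagy receptor whose promoter is shown above, had 1125, 1114 and 2039 normalized counts in KO tumor and 125.3, 150.8 and 174.8 in KO TDLN. It had 2231, 702.7 and 313.5 in WT tumor and 190.9, 96.8 and 162 in WT TDLN. Tumor and TDLN did not overlap, but the WT tumor libraries spread 7.12-fold, the widest of the 30 genes across tumor libraries. The log2 change was 3.00 in KO (SE 0.53, adjusted p = 0.00134) and 2.27 in WT (SE 0.53, adjusted p = 0.00781). In WT it was 1.55 without WT tumor replicate 1 and 2.91 without WT tumor replicate 4, and passed in both.

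Hilpda (ENSMUSG00000043421), a lipid droplet protein that blocks triglyceride breakdown, had 3264, 4042 and 4951 normalized counts in KO tumor and 426.3, 370.1 and 283.3 in KO TDLN. It had 5794, 6142 and 4625 in WT tumor and 402.1, 553.4 and 272.3 in WT TDLN. These gave the smallest adjusted p of the 30 genes in each genotype, at 3.41 in KO (SE 0.26, adjusted p = 2.44e-06) and 3.72 in WT (SE 0.26, adjusted p = 1.23e-06). The lowest tumor library held several times the highest TDLN library.

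Vegfa (ENSMUSG00000023951), a growth factor for blood vessels, had 252.7, 984.6 and 709.8 normalized counts in KO tumor and 13.2, 3.3 and 0 in KO TDLN. It had 328.7, 399.4 and 262.7 in WT tumor and was listed at 0 in all 3 WT TDLN libraries. Against a floor of 3 reads per library, or 3.03 normalized counts, the WT tumor mean was at least 109-fold higher. In the fit with its pseudocount of 24.9 the log2 change was 4.30 in KO (SE 0.41, adjusted p = 1.41e-05) and 3.82 in WT (SE 0.41, adjusted p = 4.81e-05), and these sizes rest on the pseudocount, being 5.76 and 5.74 with a pseudocount of 0.25 CPM and 2.69 and 2.10 with 4 CPM. The median of the hypoxia genes in WT was 2.01 also with Vegfa at its bound. Macrophages also make Vegfa, and KO tumor replicate 2 was the highest library for both Vegfa and the macrophage and monocyte sum; the part of such cells was not tested.

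Mxi1 (ENSMUSG00000025025), a MAX partner that opposes MYC, had 668.6, 960.5 and 1232 normalized counts in KO tumor and 109.1, 157.7 and 171.9 in KO TDLN. It had 1459, 631.7 and 463.9 in WT tumor and 160.6, 101.6 and 132.2 in WT TDLN. Tumor was above TDLN without overlap, at 2.49 in KO (SE 0.37, adjusted p = 0.000473) and 2.34 in WT (SE 0.37, adjusted p = 0.000842). As for Bnip3, WT tumor replicate 1 was the highest tumor library and WT tumor replicate 4 the lowest. The macrophage and monocyte sum had this order too, at 0.274, 0.162 and 0.0884% in WT tumor replicates 1, 3 and 4. In KO tumor the order differed: that sum was highest in replicate 2, at 0.322%, and both genes in replicate 3. The part of such cells was not tested.

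Ndrg1 (ENSMUSG00000005125), a stress-induced gene linked to slowed growth, had 408.6, 836.1 and 622.2 normalized counts in KO tumor and 69.6, 111.7 and 111.4 in KO TDLN. It had 662.6, 410.1 and 592.1 in WT tumor and 83.9, 68.3 and 94.6 in WT TDLN. The tissues were again separate, at 2.37 in KO (SE 0.29, adjusted p = 0.000121) and 2.42 in WT (SE 0.29, adjusted p = 0.000123). P4ha1, a subunit of the enzyme that hydroxylates collagen, was higher by 2.28 in KO (adjusted p = 0.00014) and 1.74 in WT (adjusted p = 0.00102), beside fibroblast collagen transcripts in the tumor libraries whose part was not tested.

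Ankrd37 (ENSMUSG00000050914), an ankyrin-repeat protein known as a target of the factor, had 368.5, 411 and 540.9 normalized counts in KO tumor and 225.3, 198.5 and 232.3 in KO TDLN. It had 381, 493.8 and 358.1 in WT tumor and 133.1, 130 and 137.7 in WT TDLN. The change was the smallest of the called hypoxia genes, at 0.92 in KO (SE 0.22, adjusted p = 0.00738) and 1.45 in WT (SE 0.22, adjusted p = 0.000532). Ufsp2, on the opposite strand, overlaps it and averaged 737.5 normalized counts against 300.8.

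The other 4 hypoxia genes were called in neither genotype; in KO, Ero1a passed with only the compared groups (adjusted p = 0.0317) and with sample weights (0.0474), and Egln3 with sample weights (0.0493). Pdk1 (ENSMUSG00000006494), the kinase that shuts pyruvate dehydrogenase, had 359.4, 352.7 and 551.8 normalized counts in KO tumor and 532.3, 248.6 and 861.3 in KO TDLN. It had 391.6, 284.6 and 453.4 in WT tumor and 366.7, 472.1 and 267 in WT TDLN. The tissues overlapped, at -0.23 in KO (95% interval -1.06 to 0.59, adjusted p = 0.678) and 0.04 in WT (95% interval -0.79 to 0.86, adjusted p = 0.95), so a change of the size seen for Hilpda lies outside both intervals. Ero1a, an oxidase of protein folding, stood at 0.85 in KO and 0.67 in WT (adjusted p = 0.102 and 0.204), and Car12, a membrane carbonic anhydrase, at -0.25 and -0.44 (adjusted p = 0.643 and 0.417). Egln3 (ENSMUSG00000035105), a prolyl hydroxylase that marks the factor for destruction, had 43.8, 236 and 72.1 normalized counts in KO tumor and 13.2, 49.3 and 26.9 in KO TDLN, and 72.1, 37.3 and 133.5 in WT tumor and 49.5, 122.7 and 56 in WT TDLN. Its changes of 1.19 and 0.03 did not pass (adjusted p = 0.0951 and 0.967), and with 17 to 186 reads a library it was measured thinly.

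Library totals followed the same split by role. The 12 hypoxia genes together held 0.0974 to 0.127% of the total in KO tumor and 0.0229 to 0.0285% in KO TDLN. In WT they held 0.104 to 0.144% in tumor and 0.0232 to 0.0275% in TDLN. Hif1a had the largest mean of these genes in each group. In both genotypes, Hilpda was next in tumor and Ero1a in TDLN. The 4 transporters held 0.017 to 0.0245% in KO tumor and 0.00708 to 0.0115% in KO TDLN, and 0.0123 to 0.017% in WT tumor and 0.00694 to 0.0118% in WT TDLN. Tumor libraries differed from each other in which genes led. KO tumor replicate 2 was the highest tumor library for 3 of 4 transporters, 6 of 14 enzymes and 4 of 12 hypoxia genes. WT tumor replicate 3 was the highest for the other 8 of the 14 enzymes, and WT tumor replicate 4 was the lowest for 8 of them. In TDLN, WT TDLN replicate 3 had the largest enzyme share, 0.288%, as WT tumor replicate 3 had among tumor libraries, 0.234%.

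Neighbouring pathways were counted from lists drawn up for this comparison, with earlier results of these data known. Of 27 tested other hypoxia-induced genes, 16 passed as higher in KO and 14 in WT, beside 18.1% and 15.9% of all genes. None passed as lower, and the medians were 1.34 and 0.94, against 0.05 over all genes in each. Bhlhe40, a repressor also induced by T-cell activation, averaged 8245 ± 2772 normalized counts in KO tumor and 427.2 ± 95.1 in KO TDLN, and 8356 ± 2680 in WT tumor and 596.8 ± 169.3 in WT TDLN (SD, n = 3 each), at 4.16 and 3.74 (limma adjusted p = 2.2e-06 and 5.63e-06). Lox, an enzyme that crosslinks collagen, was listed at 0 in all 6 TDLN libraries and had 78.4 to 255.1 in KO tumor and 102.5 to 510.6 in WT tumor, with means of 186.0 in KO tumor and 306.0 in WT tumor. These means were at least 56.6-fold and 101-fold above a floor of 3 reads per library. Lox is a typical product of stromal cells, and fibroblast markers were likewise near 0 in TDLN; their part was not tested.

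Of 21 tested other genes of glucose use, 5 were higher and 2 lower in KO, beside 30.6% of all genes called, and 3 were higher and 1 lower in WT, beside 26.8%. Pfkfb3, which makes the activator of phosphofructokinase, averaged 649.3 ± 275.5 normalized counts in KO tumor and 189.3 ± 33.5 in KO TDLN, and 538.7 ± 249.6 in WT tumor and 183.8 ± 50 in WT TDLN (SD, n = 3 each), at 1.57 and 1.37 (limma adjusted p = 0.00704 and 0.0156). Its relative Pfkfb4 stood at 1.10 and 0.65 (adjusted p = 0.0541 and 0.25). Gpd2, the mitochondrial glycerol phosphate dehydrogenase, was higher by 0.96 in KO and 0.57 in WT (adjusted p = 0.00293 and 0.0449).

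Of 10 tested genes that lead pyruvate into mitochondria, 1 was higher and 0 lower in KO and 0 were called in WT. Of all genes, 30.6% were called in KO and 26.8% in WT, 12.6% and 10.9% as lower. Of 9 genes of the pentose phosphate pathway, 0 were higher and 1 lower in KO and 0 higher and 2 lower in WT, with medians of -0.37 and -0.40. Prps1, which makes the ribose donor for nucleotides, was lower, at -0.80 in KO and -1.11 in WT (adjusted p = 0.0448 and 0.011). Of 20 cell-cycle genes, 0 were higher and 14 lower in KO, beside 12.6% of all genes lower. In WT 0 were higher and 20 lower, beside 10.9% of all genes lower. The summed share of these 20 genes was 0.124 to 0.174% in KO tumor and 0.282 to 0.419% in KO TDLN. It was 0.0697 to 0.169% in WT tumor and 0.372 to 0.424% in WT TDLN. The part of proliferation in the enzyme values was not tested.

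Of 9 genes of oxygen sensing, 2 were higher in KO and 1 in WT, near the 18.1% and 15.9% of all genes. Vhl, which targets the factor for destruction, was higher in both, by 0.84 in KO and 1.08 in WT (adjusted p = 0.0462 and 0.017), and Egln1, the main prolyl hydroxylase, stood at 0.74 in KO (adjusted p = 0.0227) and 0.15 in WT (adjusted p = 0.643). In the MYC and MAX network, of which Mxi1 is part, 4 of 10 genes were higher and 2 lower in KO, beside 30.6% of all genes called. In WT 2 were higher and 2 lower, beside 26.8% of all genes called. Mxd1, another MAX partner that opposes MYC, averaged 1476 ± 328.8 normalized counts in KO tumor and 98.8 ± 34.5 in KO TDLN, and 1554 ± 746.3 in WT tumor and 108.2 ± 62.8 in WT TDLN (SD, n = 3 each), at 3.61 and 3.60 (limma adjusted p = 5.68e-05 and 7.14e-05). Mxd3, of the same family, was lower, at -2.75 in KO and -2.90 in WT (adjusted p = 0.000464 and 0.000372). Mnt was higher by 1.21 and 0.79 (adjusted p = 0.00564 and 0.0472), while Myc, at 0.78 and 0.25, and Txnip, a brake on glucose uptake, at 0.50 and 0.25, passed in neither.

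KO was compared with WT within each tissue to ask whether loss of TrIP alters these genes. None of the 30 was called in tumor or in TDLN, where 0.0% of all genes were called by limma; 1 of the 30 had an unadjusted p under 0.05 in tumor (1004 of 16065 genes did) and 1 in TDLN (123 did). In tumor the medians were 0.40 for transporters, -0.01 for enzymes and 0.22 for hypoxia genes, against 0.02 over all genes. Slc2a1, Hk1 and Pfkm were the members whose KO and WT tumor values did not overlap, KO lying above in each, against 7.48% of all genes with no overlap (4.1% with KO above and 3.37% below). Slc2a1 had 838.7 to 998.5 normalized counts in KO tumor and 563.6 to 703.3 in WT tumor, at 0.44 (95% interval -0.08 to 0.96, adjusted p = 0.803). Hk1 had 457 to 688.9 in KO tumor and 327 to 438.6 in WT tumor, at 0.52 (95% interval 0.01 to 1.03, adjusted p = 0.775). Vegfa averaged 649 ± 369.7 in KO tumor and 330.3 ± 68.4 in WT tumor (SD, n = 3 each), which overlapped, at 0.75 (95% interval -0.13 to 1.63, limma adjusted p = 0.798). The macrophage and monocyte sum was 0.157 to 0.322% in KO tumor and 0.0884 to 0.274% in WT tumor, and the CD8 identity sum was 0.441 to 0.462% in KO tumor and 0.553 to 0.674% in WT tumor, without overlap. Their part in these differences was not tested.

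In TDLN all 14 enzymes lay below 0 in KO, with a median of -0.31 against 0.00 over all genes, and 0 of them passed. The values followed individual libraries: KO TDLN replicate 3 was the lowest TDLN library for 12 of the 14 enzymes and WT TDLN replicate 3 the highest for 12. Pkm had 4317, 3599 and 2336 normalized counts in KO TDLN and 3526, 5908 and 4501 in WT TDLN, at -0.45 (95% interval -1.0 to 0.10, adjusted p = 1.0). Ankrd37 had 198.5 to 232.3 in KO TDLN and 130 to 137.7 in WT TDLN, at 0.62 (95% interval 0.15 to 1.09, adjusted p = 1.0). Egln3 had 13.2 to 49.3 in KO TDLN and 49.5 to 122.7 in WT TDLN, at -0.87 (95% interval -1.98 to 0.24, adjusted p = 1.0). Ankrd37 and Egln3 were the members whose TDLN groups did not overlap, against 6.35% of all genes (3.17% with KO above and 3.18% below).

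**Figure D5:**
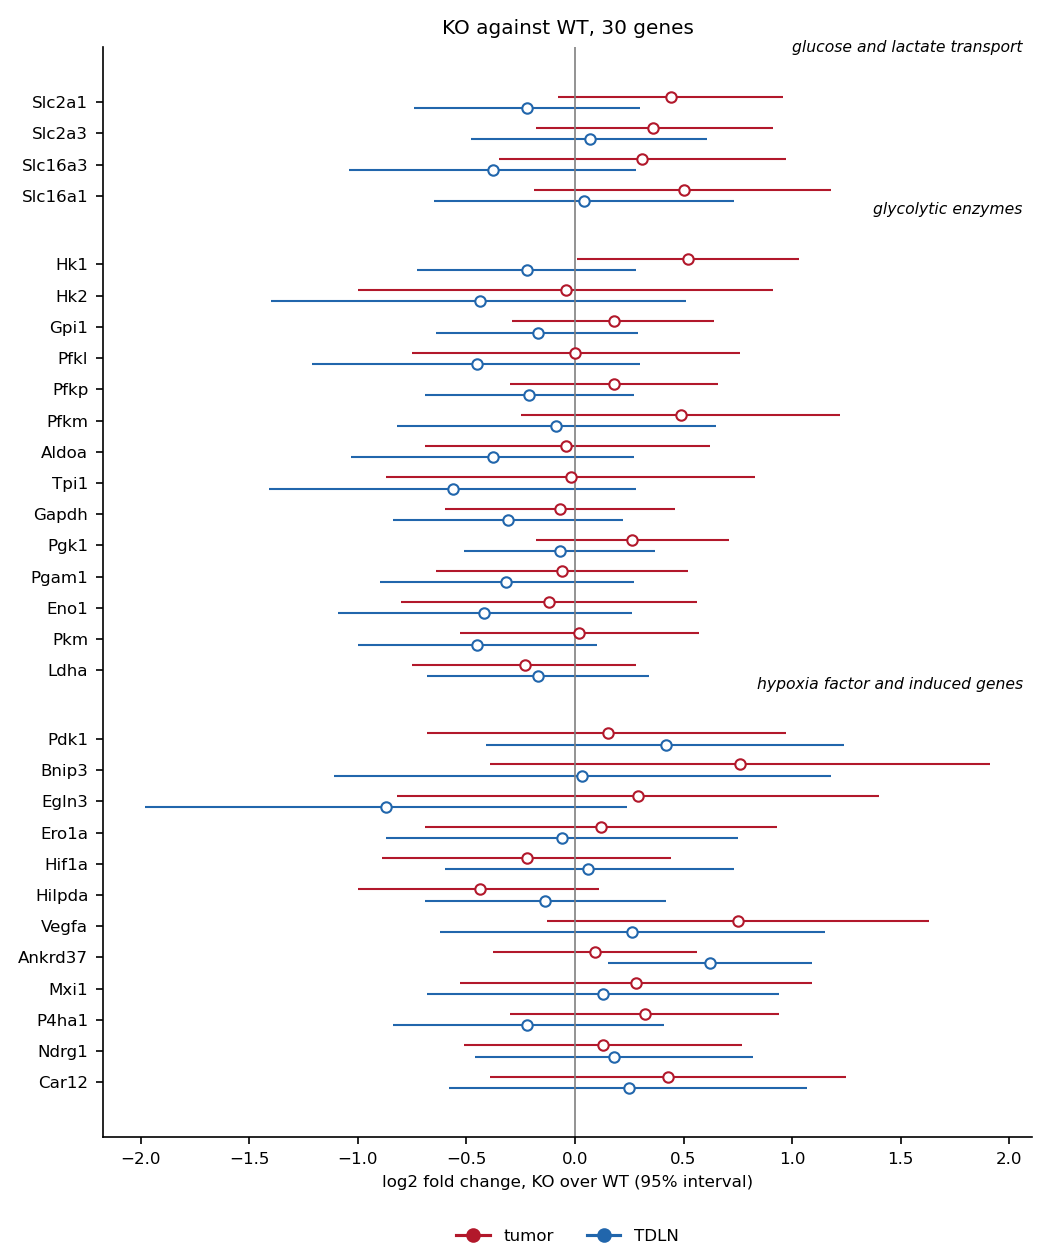
Log2 fold change of KO over WT for the 30 genes in tumor (red) and TDLN (blue), with 95% intervals from limma; open points did not pass an adjusted p of 0.05, and 0 points passed. In TDLN the 14 enzymes all lie left of 0, with a median of -0.31, while in tumor they lie on both sides.

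The interaction, the genotype difference in tumor less that in TDLN, passed for 0 of the 30 genes and for 0.0% of all genes, with 1 member, Hk1, and 465 genes at an unadjusted p under 0.05. It was 0.74 for Hk1 (SE 0.33), 0.65 for Slc2a1 (SE 0.34) and 0.69 for Slc16a3 (SE 0.43), each with adjusted p = 1.0. Its sign was positive for 24 of the 30 genes, with a median of 0.35 against 0.01 over all genes; for the enzymes 13 of 14 were positive, with genotype medians of -0.01 in tumor and -0.31 in TDLN. For Hilpda it was -0.30 (SE 0.36) and for Hif1a -0.29 (SE 0.43). SEs of the interaction lay between 0.29 for Pgk1 and 0.75 for Bnip3.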

How the data were processed

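Polyadenylated RNA of sorted CD8 T cells was sequenced in 12 libraries, 3 in each of 4 groups, with a stranded kit per the labels' protocols. The deposited table holds normalized counts per gene (a signal, not raw counts) exported from Partek, per the file headers. The submitters' processing notes name the builds GRCm38 and GRCm39 without their roles; for the aligner, counter and normalization method, none was stated in the sources used here. Depth was estimated from the steps between low values. Of values under 50 reads, 87.0 to 89.6% were whole reads within 0.01, and the rest were not. As the table holds normalized counts, no count model was used.

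A filter at a mean of 1 CPM kept 16065 of 26962 genes, and log2(normalized count + 24.9, which is 1 CPM) was fitted in limma 3.58.1 (R 4.3.3) with a trend over all 12 libraries, so fold changes of low genes are understated. P-values were Benjamini-Hochberg adjusted over all genes tested in each comparison, with a threshold of 0.05. The scripts were tested on simulated data. Copies were found with blastn 2.17.0. There were 22 alternatives: 12 left out a library and 10 changed another choice.

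The members and lists were chosen with earlier results of these data known. Library values are given for called members with large changes, for those of smallest p by genotype, and for Slc2a1, Hk2, Ldha, Hif1a and Pdk1; those of Pgk1 in KO were added after they were seen. Of the wider lists, up to 3 genes called in both genotypes with the largest changes and 6 preset genes are named. A gene that this rule picks is not reported here.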

Additional observations from a re-analysis of the deposited data

How the results depend on the processing

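Under all 22 alternatives, 10 of the 12 members called higher in both genotypes kept both calls; the exceptions were Slc2a1 and Hk2 in WT. Calls of the genes picked from the wider lists were also lost in places. In WT such losses numbered 25 with a library left out and 12 under the other alternatives. In KO they numbered 20 and 6. Values that changed sign came from genes that had not passed. Summed with copies (added after seeing the data), KO values were -0.09 for Aldoa, -0.05 for Gpi1, -0.18 for Pgam1, -0.09 for Pgk1 and -0.07 for Tpi1, and WT values -0.36 for Gpi1 and -0.19 for Pgk1. With sample weights, Pgam1 was -0.06 and Tpi1 -0.09 in KO, and Aldoa 0.12 and Pkm 0.09 in WT. With columns rescaled, WT values were -0.02 for Egln1, -0.10 for Egln3, -0.08 for Gpi1, -0.13 for Hk1 and -0.12 for Pdk1; with quantile normalization Egln3 was -0.24. Rescaling moved the WT median of all genes to -0.11 and quantile normalization to -0.09, against 0.05 as deposited; in KO they gave -0.02 and -0.12. Quantile normalization split the calls into 2396 higher and 2870 lower in KO and 2018 and 2285 in WT.

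Leaving out each library in turn gave KO ranges of -0.60 to 0.11 for Car12, -0.18 to 0.10 for Gapdh, -0.68 to 0.16 for Pdk1, -0.11 to 0.25 for Pgam1 and -0.11 to 0.44 for Tpi1. WT ranges were -0.32 to 0.22 for Aldoa, -0.02 to 0.31 for Egln1, -0.31 to 0.37 for Egln3, -0.08 to 0.25 for Gpi1, -0.07 to 0.23 for Hk1, -0.10 to 0.75 for Myc, -0.16 to 0.22 for Pdk1, -0.47 to 0.19 for Pfkl, -0.33 to 0.13 for Pgam1, -0.19 to 0.18 for Pkm and -0.66 to 0.03 for Tpi1.

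Counts over all genes moved more. KO against WT in tumor gave 5 higher and 1 lower with no filter and 0 to 10 higher with a library left out (10 without WT tumor replicate 1); the interaction gave 1 higher with no filter. For tumor against TDLN in KO, 1878 genes were higher with a mean of at least 5 CPM, 3176 were lower with sample weights, and 1030 to 2410 were lower with a library left out (1139 without KO tumor replicate 1, 1284 without KO tumor replicate 2, 1030 without KO TDLN replicate 1, 1201 without KO TDLN replicate 2). In WT, 1052 were lower with only the compared groups and 1081 to 2130 with a library left out (1081 without WT TDLN replicate 4). Of the members, 1 was lower in KO with sample weights and 1 with copies summed, and in WT 0 were lower with no filter, only the compared groups, sample weights or the replicate block, and 0 to 1 with a library left out. The causes were not tested.

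The replicate block gave 2751 higher and 1896 lower genes in KO, 2415 and 1661 in WT, and 0 between genotypes; members higher were 16 in KO (Slc16a1 added, adjusted p = 0.0344) and 12 in WT, and Eno1 in WT was lost (adjusted p = 0.0577, limma). Same-numbered libraries of tumor and TDLN correlated at -0.04 to 0.20, and 4 of 12 libraries correlated best with their own number. Each genotype has the same numbers in both tissues. Correlations over 3 libraries a group cannot settle whether a number is a mouse. No label says so, and the main fit did not pair samples. Low read numbers limit the precision for Vegfa (0 to 776 reads a library), Slc16a3 (11 to 446), Egln3 (17 to 186) and Pfkm (18 to 97).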
